A study of Mus musculus with 30 samples.

Results

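Gene deserts are long stretches of chromosome with no protein-coding gene, and the acetylated regions inside them are described here for mouse lymphoid cells in which Crebbp was intact or deleted. Crebbp encodes CBP, an enzyme that acetylates histones. The peaks of 12 acetylation lists were merged into 49179 regions on chromosomes 1 to 19, and 36887 of these held a peak in at least 2 lists. The 1308 desert regions (3.55% of the 36887) were those that lay more than 100 kb from every protein-coding gene span in mm10 RefSeq. Immunoglobulin loci count as desert under this rule where they lie that far from a protein-coding gene, because the gene table types them as other than protein-coding.

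The study followed C57BL/6 mice in which floxed Crebbp was removed by Mx-Cre, a transgene driven by the interferon-responsive Mx promoter and therefore not limited to B cells. Lymphoproliferative disease (LPD) of the genotype Crebbp-/- (CBPfl/fl:Mx-Cre+) was profiled as bulk, unsorted splenocytes, and its reference was B220+ B cells sorted from wild-type (CBPfl/fl:Mx-Cre-) spleen. Chromatin immunoprecipitation with sequencing was done for H3K27ac, H3K18ac and H3K56ac, with 2 lists per mark and group. Lymphoid progenitors (Lin- IL7ra+, sorted from lineage-depleted bone marrow) had 1 H3K27ac list each for Crebbp-/- (CBPfl/fl:Mx-Cre+) and wild type (CBPfl/fl:Mx-Cre-), and wild-type B cells had 1 CBP list. Both genotypes carry the floxed allele. LPD and B cells differ in genotype, disease and sorting, and these cannot be told apart. The labels give no ages, and do not say that the 2 lists of a group came from separate animals, so the spread between them may be technical.

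CBP and its relative p300 place acetyl groups on several lysines of histone H3, among them lysines 27, 18 and 56. Acetylated stretches far from genes are commonly enhancers, which act on promoters over long distances through folding of the chromosome. Genes that direct development often stand beside deserts, and the ground around Myc is known to hold distal enhancers that are active in blood cells.

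Peak positions are the only values in the files, which give neither heights nor scores, so read depth is unknown and a peak is either present or absent. The lists of LPD and of B cells differ in length for H3K18ac, with 29.1 and 21.2 Mb in LPD against 13.1 and 13.8 Mb in B cells. H3K56ac lists span 16.8 and 18.1 Mb in LPD against 10.5 and 9.34 Mb in B cells, and H3K27ac lists 25.7 and 17.99 Mb against 26.6 and 25.9 Mb. The B cell marker genes (10 listed) carried 84.9 and 58.7 kb of H3K27ac in LPD, against 102 and 97.6 kb in B cells. Ebf1 accounts for much of that length, and without it, a choice made after its values were seen, the sums were 58.8 and 41.6 kb in LPD and 52.3 and 50.1 kb in B cells, which overlap. For H3K18ac the same 10 genes carried 74.7 and 47.3 kb in LPD, against 21.8 and 26.2 kb in B cells. Of 10 T and NK cell markers, 8 had no H3K27ac peak in any of the 4 lists, and neither did 9 of 10 myeloid markers. The T cell genes Lck and Cd3d had H3K27ac in all 4 lists. Lck had 3.26 and 2.42 kb in LPD, against 4.57 and 4.68 kb in B cells. Cd3d had 0.970 and 0.589 kb in LPD, against 2.17 and 2.17 kb in B cells. Erythroid markers (9 listed, 5 with no H3K18ac peak in any list) carried 8.18 and 6.17 kb of H3K18ac in LPD, against 1.20 and 1.002 kb in B cells, while their H3K27ac overlapped between the groups, at 6.57 and 3.90 kb in LPD and 4.45 and 4.21 kb in B cells. The part of other cells of the unsorted spleen in the results below was not tested.

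Desert regions overlapped the start windows of 44 long non-coding RNA (lncRNA) genes, and windows of 9 of them are shown because they lie in deserts or regions that the results turn on. RefSeq windows of assembly GRCm38.p6 run from 250 bases before a start to 50 after it, 5′ to 3′ on the gene's strand. Capitals mark matches, on either strand, to 7 motifs: EBF1 (CCC, any 2 bases, GGG), E protein (CAGCTG or CAGGTG), ETS (GAGGAA), AP-1 (TGANTCA), CRE (TGACGTC), RUNX (TGTGGTT) and IRF (GAAA, any 2 bases, GAAA). Overlapping matches were each counted. The first pair belongs to regions with a peak in all 12 lists and a CBP peak in B cells: Lncpint, a p53-induced lncRNA gene between Klf14 and Mkln1 (chr6:31218425-31218724), and Gm15323 in the Map3k1 desert (chr13:112000759-112001058).
Lncpint: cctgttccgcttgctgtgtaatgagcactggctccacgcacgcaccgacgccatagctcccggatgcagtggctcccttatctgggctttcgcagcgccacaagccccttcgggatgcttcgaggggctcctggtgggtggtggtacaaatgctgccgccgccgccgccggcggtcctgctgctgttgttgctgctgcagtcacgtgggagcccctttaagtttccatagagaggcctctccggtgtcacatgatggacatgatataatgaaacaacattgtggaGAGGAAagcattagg
Gm15323: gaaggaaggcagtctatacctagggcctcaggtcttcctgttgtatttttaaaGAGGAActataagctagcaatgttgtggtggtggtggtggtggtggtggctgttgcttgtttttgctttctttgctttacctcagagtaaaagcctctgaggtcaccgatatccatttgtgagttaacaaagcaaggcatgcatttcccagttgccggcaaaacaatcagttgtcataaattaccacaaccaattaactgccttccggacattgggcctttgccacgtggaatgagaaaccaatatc

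Regions gained in all 3 marks held the starts of Gm31746 (chr6:51061208-51061507, between Npvf and Gm38821), Gm36884 (chr10:125744770-125745069, between Slc16a7 and Lrig3), Gm13470 (chr2:46442856-46443155, in the desert beside Zeb2) and Mexis (chr4:53270183-53270482, a macrophage lncRNA gene beside the cholesterol exporter gene Abca1).
Gm31746: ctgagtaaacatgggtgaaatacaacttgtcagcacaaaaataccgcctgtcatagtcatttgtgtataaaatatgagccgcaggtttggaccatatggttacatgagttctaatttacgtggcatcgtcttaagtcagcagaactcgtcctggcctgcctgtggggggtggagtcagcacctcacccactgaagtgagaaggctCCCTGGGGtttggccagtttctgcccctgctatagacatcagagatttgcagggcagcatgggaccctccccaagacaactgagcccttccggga
Gm36884: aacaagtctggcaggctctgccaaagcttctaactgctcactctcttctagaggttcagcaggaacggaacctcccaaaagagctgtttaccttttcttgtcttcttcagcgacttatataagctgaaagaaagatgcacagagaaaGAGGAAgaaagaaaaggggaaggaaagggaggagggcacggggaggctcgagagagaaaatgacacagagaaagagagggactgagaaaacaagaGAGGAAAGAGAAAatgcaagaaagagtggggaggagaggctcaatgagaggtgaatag
Gm13470: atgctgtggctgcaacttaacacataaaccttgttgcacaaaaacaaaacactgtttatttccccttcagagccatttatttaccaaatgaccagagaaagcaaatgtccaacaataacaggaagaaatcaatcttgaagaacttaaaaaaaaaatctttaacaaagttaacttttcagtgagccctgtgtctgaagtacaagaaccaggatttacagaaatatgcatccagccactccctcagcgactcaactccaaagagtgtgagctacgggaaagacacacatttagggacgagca
Mexis: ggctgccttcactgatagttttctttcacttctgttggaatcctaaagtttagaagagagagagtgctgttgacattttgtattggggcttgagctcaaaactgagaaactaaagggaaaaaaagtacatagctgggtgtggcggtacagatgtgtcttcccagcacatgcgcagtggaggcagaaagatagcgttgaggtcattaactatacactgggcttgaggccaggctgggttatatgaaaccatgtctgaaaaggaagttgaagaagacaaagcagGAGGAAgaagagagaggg

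Losses are shown by Dubr (chr16:50732724-50733023, lost in all 3 marks) and Gm38838 (chr6:81446208-81446507, lost for H3K27ac), and a gain of H3K18ac alone by Morrbid (chr2:128429302-128429601), a lncRNA gene that in mouse myeloid cells controls the death gene Bcl2l11.
Dubr: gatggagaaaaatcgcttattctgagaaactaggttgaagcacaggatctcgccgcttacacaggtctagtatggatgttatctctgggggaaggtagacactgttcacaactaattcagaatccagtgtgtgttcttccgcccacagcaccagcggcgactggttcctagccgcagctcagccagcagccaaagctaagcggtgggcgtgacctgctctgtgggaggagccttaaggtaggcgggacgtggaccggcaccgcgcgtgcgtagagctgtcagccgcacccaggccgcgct
Gm38838: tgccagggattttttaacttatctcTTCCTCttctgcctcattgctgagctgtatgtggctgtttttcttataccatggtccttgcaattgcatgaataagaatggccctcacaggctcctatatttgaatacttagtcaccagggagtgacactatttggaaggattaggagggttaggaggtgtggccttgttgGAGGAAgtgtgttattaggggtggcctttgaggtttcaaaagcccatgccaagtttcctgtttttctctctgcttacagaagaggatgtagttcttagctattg
Morrbid: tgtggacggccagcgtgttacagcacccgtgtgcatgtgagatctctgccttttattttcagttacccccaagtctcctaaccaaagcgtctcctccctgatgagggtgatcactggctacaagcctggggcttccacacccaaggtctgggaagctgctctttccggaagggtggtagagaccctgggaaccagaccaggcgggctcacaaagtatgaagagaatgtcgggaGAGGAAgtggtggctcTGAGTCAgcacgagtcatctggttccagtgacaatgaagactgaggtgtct

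Across the 47 windows that overlapped a desert region (some genes have more than 1), the ETS motif was in 44.7%, against 27.4% of 1967 other windows in the same deserts and 28.3% of all 32851 windows. EBF1 matches were in 19.1% of the overlapping windows, 6.25% of the other desert windows and 13.7% of all windows. The shares for the E protein motifs were 34.0, 29.9 and 32.9%, for AP-1 12.8, 10.3 and 7.81%, for RUNX 8.51, 6.30 and 5.27% and for IRF 4.26, 3.97 and 3.44%, in the same order. No CRE match stood in the 47 windows, while 1.02% of other desert windows and 3.21% of all windows held one. Median GC content was 50.7, 44.7 and 52.7%, and median CpG observed over expected 0.238, 0.191 and 0.384. The sets differ in base composition as well as in motif shares, its part in them was not tested, and a match is only a description of the letters.

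Deserts are sparse in acetylation. Protein-coding genes left 1393 gaps with ground more than 100 kb from both neighbours, in all 680 Mb, or 28.0% of the 2430 Mb between the outermost genes, and 253 of the gaps (18.2%) held a desert region. The density was 1.92 regions per Mb in deserts, against 20.3 per Mb over the rest. The regions were concentrated as well, since 36 deserts with 10 or more regions held 632 of them (48.3%). Distances to the nearest protein-coding gene spanned 100.03 to 1448 kb with a median of 169 kb. Just inside the limit were regions at 100.03, 100.05 and 100.11 kb, and just outside it, and so not counted, regions at 99.8, 99.9 and 99.9 kb.

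Desert regions had a median width of 0.688 kb (range 0.211 to 16.8 kb), close to 0.678 kb for the 5083 regions that lie 10 to 100 kb from a gene and below 0.765 kb for all regions outside deserts. They were shared by fewer lists: 108 (8.26%) had a peak in all 12, against 24.5% of regions elsewhere. A peak in exactly 2 lists was found for 392 (30.0%, against 21.4% elsewhere). Of the 392, 199 had both LPD H3K18ac lists, 76 both B cell H3K27ac lists, and 95 had lists of different groups or marks. A further 667 desert regions had a peak in 1 list only, which is 33.8% of 1975, against 24.99% of all merged regions, and were not counted. Within a group, the 2 lists of a mark agreed on desert regions to 61.1 to 86.1% for H3K27ac, 69.5 to 83.9% for H3K18ac and 66.6 to 71.4% for H3K56ac (regions in both over regions in either). Between LPD and B cells the same share was 27.4 to 32.4%, 30.8 to 31.9% and 26.96 to 30.4%. Among the regions counted, lists of 1 group were thus more alike than lists of different groups in all 3 marks. Leaving out the 667 regions with a peak in 1 list can only raise these shares, within and between groups. The part of this filter in the gap between them was not tested.

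Desert acetylation moved in opposite directions for different marks. H3K27ac covered 565 and 345 kb of the desert regions in LPD, against 694 and 681 kb in B cells. H3K18ac covered 978.5 and 735 kb in LPD, against 414 and 439 kb in B cells. H3K56ac covered 356 and 387 kb in LPD, against 186 and 162 kb in B cells. In each mark both LPD lists lay on one side of both B cell lists, below for H3K27ac and above for the other two. H3K27ac averaged 455 ± 156 kb in LPD and 688 ± 8.90 kb in B cells (SD, n = 2 each), which is -0.59 on the log2 scale. H3K18ac averaged 857 ± 173 kb in LPD and 427 ± 17.2 kb in B cells (log2 ratio 1.01). H3K56ac averaged 372 ± 21.6 kb in LPD and 174 ± 17.3 kb in B cells (log2 ratio 1.09). In bulk tissue, acetylation in fewer cells and less acetylation per cell cannot be told apart. The exact two-sided permutation p was 0.333 in each case, the smallest that 2 lists against 2 allow, so no difference here can pass 0.05.

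Set against the length of its own list, the share of acetylation that lay in deserts was lower in LPD for H3K27ac, with 2.20 and 1.92% in LPD against 2.61 and 2.63% in B cells. The difference of -0.560 percentage points had an exact permutation p of 0.333. H3K56ac had 2.12 and 2.14% of its length in deserts in LPD, against 1.78 and 1.73% in B cells, a difference of 0.371 points with the same p. H3K18ac had 3.37 and 3.47% in LPD and 3.16 and 3.18% in B cells, a difference of 0.247 points that turned to -0.099 or -0.127 when the first or second LPD list was left out and the regions were chosen again. It was -0.059 when a region needed a peak in 3 lists. That mark therefore had no stable direction relative to its list. H3K27ac between 10 and 100 kb from genes showed a like difference, with 9.38 and 8.90% of list length in LPD and 11.4 and 11.4% in B cells, and per 100 kb of that acetylation the deserts held 23.4 and 21.6 kb in LPD and 22.9 and 23.1 kb in B cells, which overlap. For H3K56ac this ratio did not overlap, at 22.8 and 23.1 kb per 100 kb in LPD against 20.2 and 19.8 kb in B cells. Neither did it for H3K18ac, at 26.2 and 25.8 kb in LPD against 25.2 and 25.5 kb in B cells. The H3K56ac share of that belt was itself higher in LPD, at 9.29 and 9.27% of list length against 8.80 and 8.73% in B cells. With genes more than 200 kb away, where fewer regions enter, the H3K56ac share difference in deserts was 0.059 points.

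**Figure D1:**
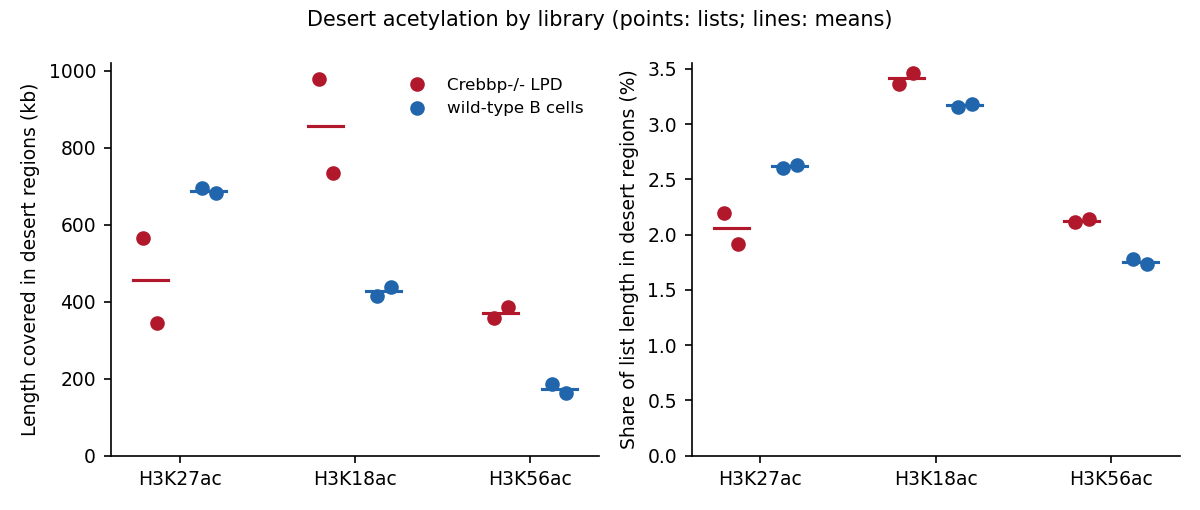
Left, length of desert regions covered by peaks of each list (kb); right, the same length as a percent of the list. Points are the 2 lists of each group and lines their means, with LPD left of B cells for each mark: H3K27ac covers 565 and 345 kb in LPD against 694 and 681 kb in B cells, and the other marks lie higher in LPD.

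Region by region, a desert region counted as gained for a mark if both lists from LPD showed a peak and those from B cells showed none. It counted as lost if the groups were the other way round, and as kept if all 4 lists showed one. H3K27ac was present in at least 1 list in 981 desert regions. Of these 154 (15.7%) were gained, against 13.1% of all regions with the mark, 292 (29.8%, against 18.8%) were lost and 214 (21.8%, against 43.7%) were kept. H3K18ac was present in 1212, of which 509 (42.0%, against 31.2%) were gained, 102 (8.42%, against 4.35%) lost and 282 (23.3%, against 37.3%) kept. H3K56ac was present in 661, of which 220 (33.3%, against 23.0%) were gained, 61 (9.23%, against 4.3%) lost and 130 (19.7%, against 43.4%) kept. In all 3 marks the kept share of desert regions was below that of all regions with the mark and the lost share above it. The gained share was above it for H3K18ac and H3K56ac and near it for H3K27ac, and none of these differences was tested. Some calls came from regions that entered only through both lists of the group that had them. These were 199 H3K18ac gains (15.2% of desert regions, against 5.50% elsewhere) and 76 H3K27ac losses (5.81%, against 7.62%). With a minimum of 3 lists, H3K18ac gains were 310 and H3K27ac losses 216. The part of this filter in the differences was not tested.

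The kept share was lower the farther regions lay from genes. Between 10 and 100 kb from a gene, H3K27ac was gained in 14.3%, lost in 28.0% and kept in 28.6% of regions with the mark, and inside gene spans in 13.1, 15.9 and 48.8%. H3K18ac was gained in 39.96% and kept in 26.3% at 10 to 100 kb, against 28.6 and 41.7% inside gene spans. H3K56ac was gained in 30.7% and kept in 26.6% at 10 to 100 kb, against 20.6 and 49.0% inside gene spans. Kept desert regions were also the wide ones, with a median of 1.72 kb for H3K27ac, against 0.954 kb for gained and 0.695 kb for lost regions. Median width was 2.37 kb for desert regions in all 12 lists and 0.414 kb for those in 2 lists, since merged regions widen with the number of lists, and the part of width in the kept share was not tested.

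**Figure D2:**
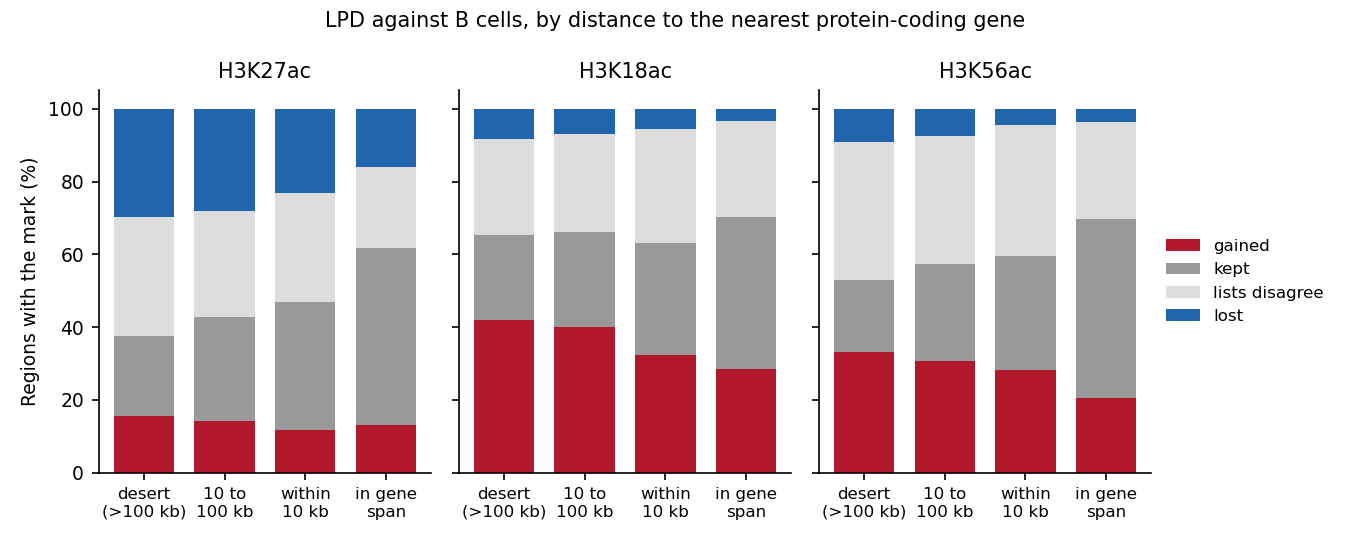
Share of regions with each mark (%) that were gained, kept, lost or in disagreement between lists of a group, by distance to the nearest protein-coding gene. The kept share is lowest in deserts for each mark, at 21.8% for H3K27ac, 23.3% for H3K18ac and 19.7% for H3K56ac.

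Counts of calls changed when 1 list was left out and when lists were cut. Without the second LPD H3K27ac list, which is the shortest of its mark, 295 regions were called gained and 294 lost for H3K27ac. No excess of losses over gains was thus left without that list. Both calls then needed only 1 LPD list, so the part of this looser rule and that of the list cannot be told apart. The log2 ratio of covered length was -0.28 without the second LPD list. Lists of a mark were also cut to the same number of peaks, widest first. H3K18ac then had 255 gains and 145 losses and H3K56ac 117 gains and 91 losses, so gains outnumbered losses. H3K27ac had 150 gains and 278 losses. The cut sets the number of peaks equal but not the covered length, so it does not remove list length.

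H3K18ac was gained with neither of the other marks in any list in 199 desert regions (15.2%, against 5.50% elsewhere). These are the regions that entered only through the 2 LPD lists of that mark. In LPD, 346 of the 873 desert regions with H3K18ac in both lists had H3K27ac in neither (39.6%, against 15.9% elsewhere). The 199 are among them, and with a minimum of 3 lists the count was 147 of 674 (21.8%, against 8.08% elsewhere). In B cells the same held for 47 of 421 (11.2%, against 4.18% elsewhere). The reverse was rare in LPD, where 3 of 383 regions with H3K27ac in both lists lacked H3K18ac (0.783%, against 4.05% elsewhere). It was commoner in B cells, at 145 of 580, a share below the 31.1% elsewhere. This contrast between LPD and B cells thus held outside deserts too, and the part of list length in it was not tested. Of the 154 regions that gained H3K27ac, 125 had also gained H3K18ac (81.2%, against 70.9% elsewhere) and 104 H3K56ac (67.5%, against 56.5%), so shared gains were common outside deserts too, and 92 regions were gained in all 3 marks (7.03%, against 5.70% elsewhere).

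Of the 292 regions that lost H3K27ac, 134 (45.9%, against 58.2% elsewhere) lost every mark they had in any list. H3K18ac was lost as well at 70 (24.0%, against 14.4% elsewhere) and kept at 46 (15.8%, against 7.48%). It was gained at 8 (2.74%, against 2.68%) and in no list at 78 (26.7%, against 50.8%). H3K56ac was lost as well at 44 (15.1%, against 10.5%) and in no list at 201 (68.8%, against 72.0%). All 3 marks were lost in 28 regions (2.14% of desert regions, against 0.832% elsewhere). The 102 regions that lost H3K18ac had in 70 cases lost H3K27ac too (68.6%, near the 65.8% elsewhere).

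Most desert regions stood in groups. Runs of at least 3 regions with neighbours at most 50 kb apart made 141 clusters, which held 970 regions (74.2%), with a median of 5 and at most 39 regions and a median span of 41.6 kb. For H3K27ac, 39 clusters held gained but no lost regions, 59 lost but no gained regions, 14 both and 29 neither. For H3K18ac, 79 held gains only, 20 losses only, 22 both and 20 neither, and for H3K56ac the counts in that order were 70, 18, 10 and 43. In 41 clusters H3K27ac was lost at 1 or more regions while H3K18ac was gained at 1 or more. The calls need not fall on the same region, and no expected number of such clusters was computed. At the same region, H3K18ac was gained at 8 of the 292 desert regions that lost H3K27ac (2.74%, against 2.68% elsewhere).

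**Figure D3:**
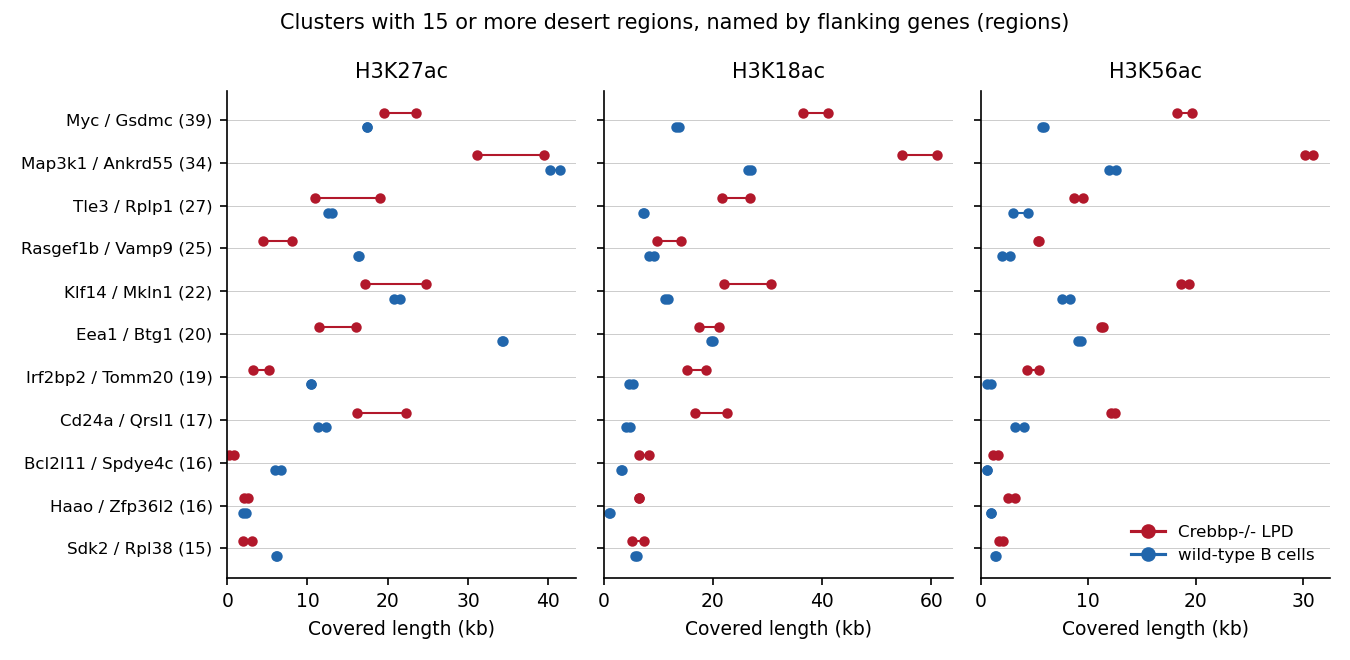
Length covered by each mark (kb) in the 11 clusters with 15 or more desert regions, named by their flanking protein-coding genes with the number of regions; points are the 2 lists of each group, LPD above B cells. H3K18ac in the Myc cluster covers 41.0 and 36.6 kb in LPD against 13.8 and 13.2 kb in B cells, and H3K27ac in the Eea1 / Btg1 cluster 16.1 and 11.4 kb against 34.2 and 34.3 kb.

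The cluster with the most regions lay downstream of Myc, the proto-oncogene of cell growth and proliferation, 116 kb from it and 1293 kb from the gasdermin gene Gsdmc (chromosome 15, 62106447 to 62483283). Its 39 regions carried 41.0 and 36.6 kb of H3K18ac in LPD, against 13.8 and 13.2 kb in B cells, a 2.88-fold higher mean in LPD. Gains of H3K18ac numbered 22 and losses 0, and both LPD lists lay above both B cell lists. H3K56ac covered 18.3 and 19.6 kb in LPD, against 5.75 and 5.89 kb in B cells, with 7 gains and 0 losses. H3K27ac covered 23.5 and 19.5 kb in LPD, against 17.4 and 17.4 kb in B cells, with 7 gains, 3 losses and 4 kept regions. The lncRNA gene Pvt1, which neighbours Myc, overlapped 24 desert regions, of which 14 had gained H3K18ac and 0 had lost it. At 2 regions of the cluster, 6.47 and 6.13 kb wide and inside Pvt1, all 12 lists and the CBP list had peaks.

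Counting both sides, Myc was the nearest gene of 48 desert regions, more than any other gene. Another region with all 12 lists and CBP lay 442 kb upstream, between A1bg and Myc (chromosome 15, 61538123 to 61543760). There H3K56ac covered 4.47 and 4.74 kb in LPD, against 0.408 and 0.727 kb in B cells, and H3K27ac 5.49 and 4.73 kb in LPD against 4.13 and 4.25 kb in B cells.

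**Figure D4:**
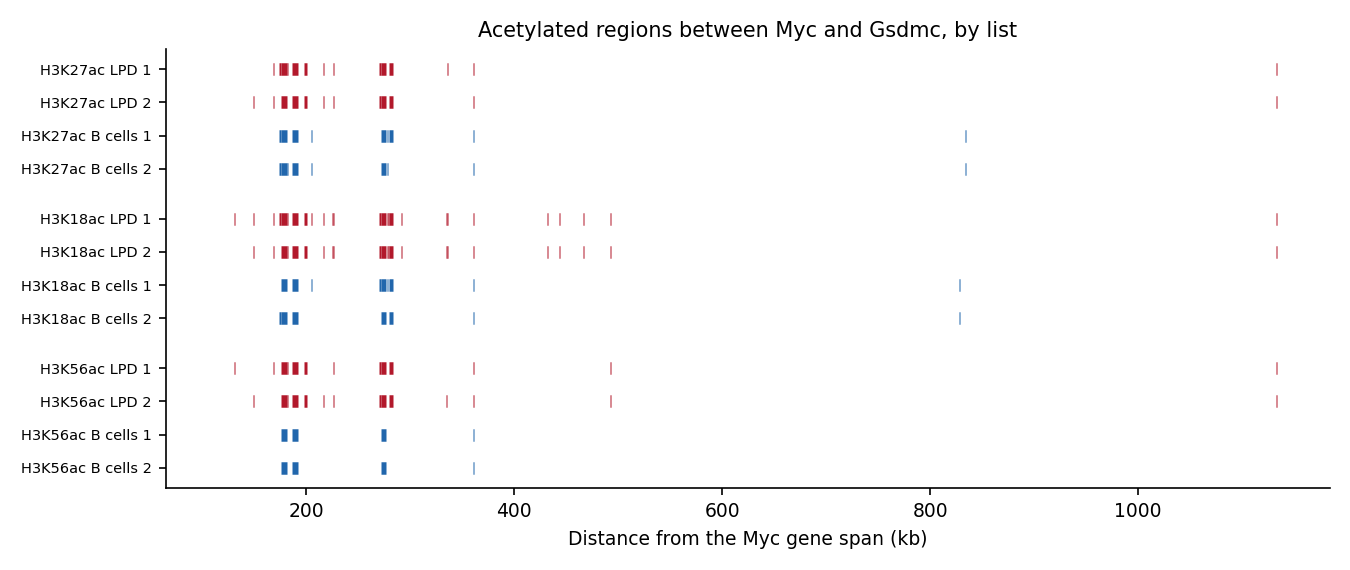
Desert regions between Myc and Gsdmc that hold a peak in each list, drawn at the full width of the merged region against distance from the Myc gene span (kb), with LPD above B cells for each mark. The H3K18ac rows show 24 gained regions and 1 lost region over the whole desert.

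The Map3k1 desert, beside the gene of a kinase of the JNK pathway (chromosome 13, 111918612 to 112131958), had the second largest cluster, with 34 regions, 26 of them in no gene of any kind. H3K18ac covered 61.0 and 54.7 kb there in LPD, against 26.97 and 26.5 kb in B cells, and 22 regions gained it. H3K56ac covered 30.2 and 31.0 kb in LPD, against 12.6 and 11.9 kb in B cells. H3K27ac was lower in both LPD lists, at 39.5 and 31.1 kb in LPD against 41.5 and 40.2 kb in B cells. The widest region kept in all 3 marks was here, 16.8 kb wide and 114 kb from Map3k1, with a CBP peak. Its H3K56ac covered 9.73 and 10.04 kb in LPD, against 1.76 and 1.91 kb in B cells, while H3K27ac covered 12.7 and 9.96 kb in LPD against 13.8 and 12.9 kb in B cells. The other 2 widest kept regions of this desert were 10.7 kb, at the start of Gm15323 printed above, and 9.58 kb, and both had a CBP peak.

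Near Tle3, the gene of a Groucho-family corepressor, 27 regions carried 26.9 and 21.7 kb of H3K18ac in LPD, against 7.39 and 7.11 kb in B cells, with 18 gains and 0 losses. The cluster between Cd24a, the gene of a B lineage surface antigen, and Qrsl1 held 17 regions, and its H3K27ac reached 22.3 and 16.2 kb in LPD, against 12.4 and 11.3 kb in B cells. Its H3K18ac covered 22.5 and 16.7 kb in LPD, against 4.73 and 3.99 kb in B cells, a 4.50-fold higher mean in LPD. All 3 marks were higher in both LPD lists in this cluster. The 12 regions between Ube2e3 and Itga4, the gene of integrin alpha 4, likewise had 19.7 and 14.2 kb of H3K27ac in LPD, against 7.74 and 7.34 kb in B cells, and 12.1 and 13.5 kb of H3K56ac against 1.59 and 1.32 kb.

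Between Klf14 and Mkln1, 22 regions held 24.7 and 17.1 kb of H3K27ac in LPD and 21.6 and 20.8 kb in B cells, which overlap, and 30.7 and 22.0 kb of H3K18ac in LPD against 11.2 and 11.8 kb in B cells. Lncpint overlapped 17 desert regions, and its start region (printed above) was kept in all 3 marks, with 3.02 and 2.95 kb of H3K27ac in LPD against 4.41 and 4.12 kb in B cells. The same desert holds the hairpins of miR-29a and miR-29b-1, members of a miRNA family that share a seed (bases 2 to 8, in capitals; RefSeq, GRCm38.p6). Their 3p strands show the shared seed.
miR-29a-3p: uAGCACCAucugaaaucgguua
miR-29b-3p: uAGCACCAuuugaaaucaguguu
The hairpins lie 16.0 and 15.6 kb from the nearest desert region (chromosome 6, 31078699 to 31080457). That region kept H3K27ac, with 1.43 and 0.306 kb in LPD against 1.08 and 0.633 kb in B cells. It gained H3K18ac, with 1.49 and 0.329 kb in LPD against no peak in B cells, and H3K56ac, with 0.243 and 0.785 kb in LPD against no peak in B cells.

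Losses of H3K27ac were grouped in other deserts. Upstream of Btg1, an antiproliferative gene of lymphocytes, 20 regions 135 kb away carried 16.1 and 11.4 kb of H3K27ac in LPD, against 34.2 and 34.3 kb in B cells, a 2.50-fold lower mean in LPD. H3K27ac was lost at 13 of them, kept at 5 and gained at 0. H3K18ac overlapped between the groups there, at 21.1 and 17.4 kb in LPD and 19.9 and 19.6 kb in B cells, and H3K56ac covered 11.2 and 11.4 kb in LPD against 9.10 and 9.35 kb in B cells. Over the whole desert the 15 lost regions had a median width of 0.770 kb and the 9 kept ones 2.26 kb, where a merged region widens with the number of lists that share it. The kept region of 7.41 kb at 241 kb from Btg1 had a CBP peak and H3K27ac of 5.37 and 4.31 kb in LPD, against 7.18 and 7.29 kb in B cells.

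**Figure D5:**
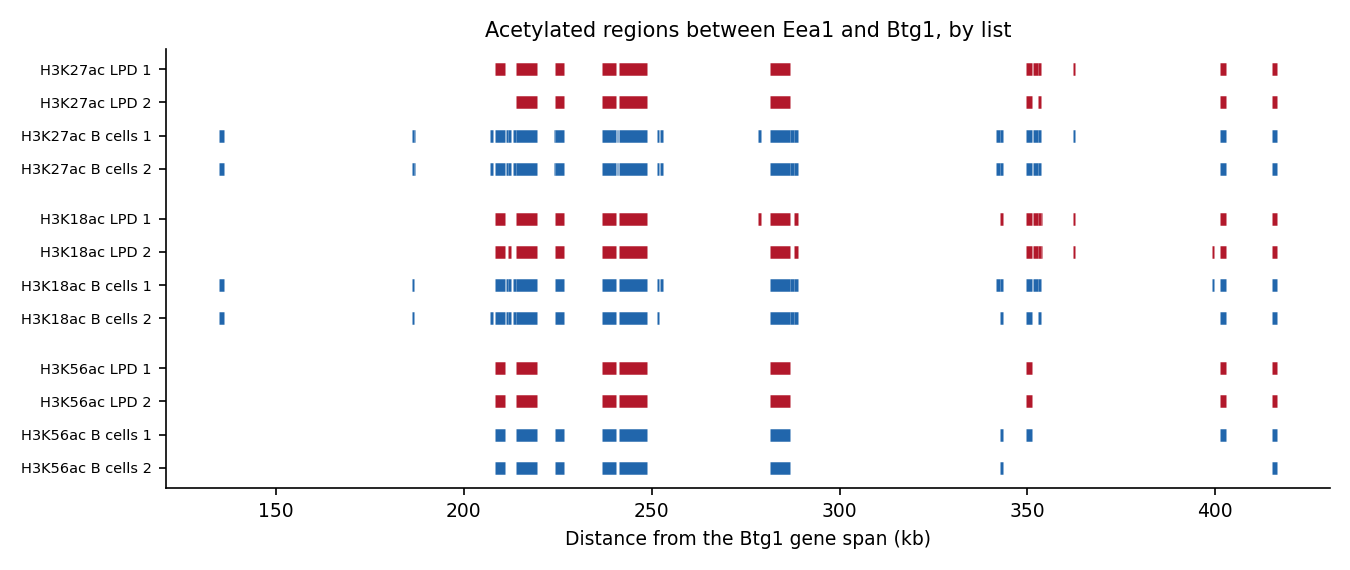
Desert regions between Eea1 and Btg1 that hold a peak in each list, drawn at the full width of the merged region against distance from the Btg1 gene span (kb), with LPD above B cells for each mark. The 2 H3K27ac rows of LPD lack 15 regions that both B cell rows have.

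Deeper relative losses were seen beside Mef2c, the gene of a transcription factor needed for B cell responses. A cluster of 9 regions 391 kb from it (chromosome 13, 83019540 to 83113127) had 2.46 and 1.13 kb of H3K27ac in LPD, against 21.9 and 21.9 kb in B cells, a 12.2-fold lower mean in LPD, with 7 losses. H3K18ac covered 4.81 and 2.82 kb there in LPD, against 11.5 and 11.04 kb in B cells, and H3K56ac 1.11 and 1.15 kb in LPD against 3.96 and 3.38 kb in B cells. All 3 marks were thus lower in both LPD lists. The widest region lost in all 3 marks was in this cluster, at 83042241 to 83047278, with H3K27ac over 4.83 and 4.62 kb in B cells and no LPD peak. A second cluster of 6 regions in the same desert had no LPD peak in any mark.

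Gadd45g, a stress response gene, had 12 regions with 0.707 kb of H3K27ac in 1 LPD list and none in the other, against 11.0 and 10.4 kb in B cells. The 12 regions near Tgfbr2, a receptor gene of TGF-beta, had 3.16 and 2.02 kb of H3K27ac in LPD, against 13.6 and 13.6 kb in B cells. H3K27ac was lost at 6 regions of the Gadd45g cluster and at 3 of the Tgfbr2 cluster, and gained at none in either. Bcl2l11, which encodes the pro-apoptotic protein BIM, faced a cluster of 16 regions where H3K27ac covered 0.797 and 0.236 kb in LPD, against 5.91 and 6.68 kb in B cells, while H3K18ac went the other way, at 8.30 and 6.48 kb in LPD against 3.15 and 3.28 kb in B cells. Of its regions 14 overlapped Morrbid, and 7 of these lost H3K27ac.

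The remaining clusters of the 10 largest differed in which marks moved. Near Rasgef1b, 25 regions had 8.13 and 4.50 kb of H3K27ac in LPD, against 16.4 and 16.2 kb in B cells, but 5.41 and 5.35 kb of H3K56ac in LPD against 2.73 and 1.98 kb in B cells. Between Irf2bp2, a transcriptional corepressor gene, and Tomm20, 19 regions had 5.20 and 3.17 kb of H3K27ac in LPD, against 10.5 and 10.4 kb in B cells, and 18.7 and 15.3 kb of H3K18ac in LPD against 4.54 and 5.25 kb in B cells. Between Haao and Zfp36l2, the gene of an mRNA decay factor that restrains lymphocyte proliferation, 16 regions had 6.48 and 6.43 kb of H3K18ac in LPD, against 1.08 and 1.02 kb in B cells, with 12 gains and 1 loss. H3K27ac overlapped between the groups there, at 2.05 and 2.61 kb in LPD and 1.96 and 2.37 kb in B cells.

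Some clusters were present in 1 group alone, and they were picked out after their values were seen. In 26 clusters with 115 regions no B cell list had a peak in any mark. The 9 regions between Kazn and Prdm2 had 6.31 and 4.66 kb of H3K27ac and 7.91 and 6.82 kb of H3K18ac in LPD, and the 7 regions between Npvf and Gm38821 had 7.32 and 4.72 kb of H3K27ac and 7.24 and 5.21 kb of H3K18ac in LPD. The 2 clusters of 4 and 3 regions in the desert beside Zeb2 belonged here, as did 5 regions between Smim20 and Rbpj, the gene of the Notch effector. In 7 clusters with 27 regions no LPD list had a peak, and the H3K27ac of B cells covered 4.82 and 5.14 kb beside Prdm1, the gene of the plasma cell regulator BLIMP1, and 4.49 and 3.95 kb beside Lmo4. A cluster between Cyria and Mycn (3 regions, 199 kb from Cyria and 342 kb from Mycn) was also of this kind.

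Single regions with the most gained length were in all 3 marks led by a 5.11 kb region in the Igh locus, the heavy chain locus (chromosome 12, 113362054 to 113367159). H3K27ac covered 5.11 and 5.03 kb of it in LPD, H3K18ac 5.02 and 4.62 kb and H3K56ac 4.66 and 4.62 kb, and no B cell list had a peak. The 5.08 kb region between Npvf and Gm38821, which includes the Gm31746 start printed above, came next, with H3K27ac over 4.75 and 3.85 kb in LPD. Regions between Ube2e3 and Itga4 (4.52 kb wide), Cd83 and Jarid2 (4.29 kb) and Slc16a7 and Lrig3 (3.22 kb, the Gm36884 start) completed the 5 with the most gained H3K27ac. Cd83 marks activated B cells and Jarid2 is a cofactor of Polycomb repressive complexes.

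Lost regions with the most length lay beside Mef2c, Foxo1 and Prdm1. Foxo1 encodes a transcription factor of B cell development, and its desert held 2 of them, lost for H3K27ac and H3K56ac, one with 4.03 and 4.003 kb of H3K27ac in B cells and no LPD peak, the other with 2.52 and 2.67 kb, a CBP peak and a peak in wild-type progenitors. The Prdm1 region was 2.50 kb wide and was lost in all 3 marks. H3K18ac covered 1.31 and 1.42 kb in B cells at a region between Prl5a1 (350 kb away) and Sox4 (446 kb away). That region was lost in all 3 marks, and Sox4 is the gene of an early B cell factor. The largest H3K18ac loss by length, 2.02 and 2.57 kb in B cells between Esp15 and Esp38 (chromosome 17, 39843622 to 39846213), lies beside a ribosomal RNA copy (Rn18s-rs5). Its sequence may have copies elsewhere, its H3K27ac was present in 1 LPD list only, and its values are therefore uncertain.

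The 319 genes nearest to a desert region are 1.54% of the 20665 protein-coding genes on chromosomes 1 to 19, and 29 of them were nearest to 10 or more regions. After Myc came Map3k1 with 27 regions, Tle3 with 26, Rasgef1b with 25 and Trib2, a pseudokinase gene, with 24. Btg1 had 20, Id2 19, Sdk2 17 and Jarid2 and Mef2c 16 each. Of 50 lymphoid regulator genes on a chosen list, 18 (36.0%) were nearest to at least 1 region, with 169 regions between them (12.9%). That list was chosen with earlier results of these data known. Only a gene that borders a desert can be nearest, so the 36.0% and the 1.54% are not comparable. Over these 169, H3K27ac was gained at 20, lost at 37 and kept at 28, and H3K18ac was gained at 68, lost at 13 and kept at 30. These counts are near those of all desert regions: H3K27ac was lost at 21.9% of the 169 and 22.3% of the 1308, and H3K18ac gained at 40.2 and 38.9%.

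Among the listed regulators, acetylation was higher in both LPD lists beside Zeb2, S1pr1, Tcf4, Ptprc and Runx1, and beside Myc, whose values are given further below. Zeb2 had 9.43 and 5.57 kb of H3K27ac over 10 regions in LPD and no peak in B cells. S1pr1, the receptor gene for lymphocyte egress, had 3.42 and 1.93 kb over 5 regions in LPD and no peak in B cells. Tcf4, an E protein gene, had 7.87 and 5.50 kb in LPD, against 0.807 and 1.12 kb in B cells. Ptprc, which encodes CD45, had 4.79 and 2.44 kb in LPD, against 1.10 and 1.004 kb in B cells. Runx1, a transcription factor gene of blood cell development, had 3.77 and 1.89 kb in LPD, against 1.74 and 1.53 kb in B cells, and the 2 groups do not overlap for any of these genes.

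H3K27ac was lower in both LPD lists beside 9 further regulators with values given in this paragraph, and beside Bcl11a and Klf4, given below. Satb1, the gene of a chromatin organiser of lymphocytes, had 1.63 and 1.23 kb over 5 regions in LPD, against 13.1 and 13.1 kb in B cells. Mef2c had 2.79 and 1.34 kb over 16 regions in LPD, against 24.3 and 24.2 kb in B cells. Prdm1 and Sox4 had no LPD peak of H3K27ac, against 4.82 and 5.14 kb and 1.97 and 1.80 kb in B cells. Cxcr4, the receptor gene for CXCL12, had 1.63 and 1.31 kb of H3K27ac in LPD, against 8.27 and 6.40 kb in B cells, yet its H3K18ac was 7.85 and 6.16 kb in LPD against 3.28 and 3.16 kb in B cells. Id2, an inhibitor of E proteins, showed the same split: 2.36 and 1.28 kb of H3K27ac in LPD against 4.09 and 4.53 kb in B cells, and 9.88 and 8.02 kb of H3K18ac in LPD against 2.29 and 3.52 kb in B cells. Ets1 had 3.16 and 1.53 kb of H3K27ac over 9 regions in LPD, against 8.76 and 8.20 kb in B cells. Bcl6, the germinal centre repressor gene, had 0.346 kb in 1 LPD list, against 2.23 and 2.25 kb in B cells, over 2 regions. Ebf1, an early B cell factor gene, had 1.496 and 0.755 kb in LPD, against 2.21 and 1.57 kb in B cells.

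Over all 48 regions nearest to it, Myc had 33.0 and 26.8 kb of H3K27ac in LPD, against 24.2 and 25.04 kb in B cells. The other 3 regulators had few regions. Bcl11a and Klf4 had 3 regions each, with H3K27ac lost at 1 region of each. Bcl11a had 0.586 and 0.205 kb of H3K27ac in LPD, against 0.782 and 0.716 kb in B cells. Klf4 had 0.329 kb in 1 LPD list, against 1.05 and 1.17 kb in B cells. Nr4a3 had 3 regions, none gained, lost or kept for H3K27ac, with 0.674 kb in 1 LPD list and 0.268 and 0.902 kb in B cells, which overlap.

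Most desert regions touched no annotated gene at all. Of the 1308, 803 (61.4%) overlapped no gene of any kind and 465 (35.6%) overlapped a lncRNA gene. The lncRNA genes with the most regions were A930011G23Rik (27, in the Rasgef1b desert), Pvt1 (24), Lncpint (17) and Morrbid (14). With non-coding genes counted as genes, 113 regions (8.64%) remained more than 100 kb from everything annotated.

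Immunoglobulin loci held 28 of the regions. The Igk light chain locus had 9, with 9.25 and 3.18 kb of H3K27ac in LPD and no peak in B cells for any of the 3 marks. The Igh locus had 7, with 9.84 and 8.21 kb of H3K27ac in LPD, against 0.864 and 0.747 kb in B cells, and 6.63 and 7.14 kb of H3K56ac in LPD against 0.355 kb in 1 B cell list. The Igl light chain locus had 12 and went the other way for H3K27ac, at 6.60 and 3.13 kb in LPD against 7.75 and 8.08 kb in B cells.

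In lymphoid progenitors, where 1 list per genotype allows no test, 98 desert regions (7.49%) had an H3K27ac peak in Crebbp-/- cells and 166 (12.7%) in wild-type cells, with 91 in both. Elsewhere the shares were 26.1% in Crebbp-/- and 33.0% in wild-type cells. The Crebbp-/- list is also the shorter one, with 12899 peaks on these chromosomes against 16835 in wild type. Of the 154 regions gained for H3K27ac in LPD, 3 had a peak in Crebbp-/- and 3 in wild-type progenitors (1.95% each, against 3.29 and 4.72% of gained regions elsewhere). Of the 292 lost regions, 14 had a peak in Crebbp-/- and 38 in wild-type progenitors (4.79 and 13.0%, against 6.42 and 11.999% elsewhere). Of the 214 kept regions 59 had one in Crebbp-/- and 85 in wild-type progenitors (27.6 and 39.7%, against 58.4 and 69.9% elsewhere).

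CBP itself was found at 22 desert regions in wild-type B cells (1.68%, against 2.41% of regions elsewhere), from a list of 979 peaks. Of these 22, 15 were kept, 3 lost and 0 gained for H3K27ac in LPD. Of the 859 regions elsewhere with a CBP peak, 738 were kept, 56 lost and 3 gained. Of the 108 regions with all 12 acetylation lists, 11 (10.2%) had a CBP peak, against 7.21% of such regions elsewhere. The CBP list had 32 peaks in deserts, and 10 of them fell outside every merged acetylation region.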

How the data were processed

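Peak lists of 15 samples were used; the other 15 of the 30 samples (RNA-seq libraries and an input) were not analysed here. MACS2 2.0.10, Bowtie2 2.1.0, bedtools and Picard, with build mm10, are named per the submitters' processing notes; settings are not given in the sources used here. The deposited files hold peak positions called per library, with no other unit, so read depth is unknown and list length stands in its place.

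The steps from there on used SciPy 1.17.1, pandas 2.3.3 and NumPy 2.4.6 in Python 3.11.15, with Matplotlib 3.10.9 for plots. Overlapping or touching peaks of 12 acetylation lists were merged, and a list has a region with 1 bp of overlap. Gene spans and types come from the RefSeq table of GRCm38.p6, the assembly called mm10. Shares "of all regions" refer to merged regions in at least 2 lists that have the mark in at least 1 of its 4 lists. Covered lengths were compared by exact two-sided permutation over lists, on log2 of kb for lengths. Merging, calls, distances and clusters were tested on simulated data.

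Named genes are the neighbours of the 5 regions with the most gained and lost length per mark, of the 5 widest kept in all 3 marks, of the 10 largest clusters and of regions with CBP, the 10 genes nearest to the most regions, and all listed lymphoid regulators that are a nearest gene. Other clusters and the genes whose start windows are printed were named after their values were seen. Members and lists were chosen with earlier results of these data known. The plan was to read sequence features of the regions themselves only if a genome was given. None was used here, and the motifs of the plan were applied to RefSeq start windows instead, a choice made after seeing the data; sequences on chromosome 18 are not printed, and results that need 1 withheld gene are not reported here. Alternatives for distance, gene types, list minimum, merging, overlap, list length, single lists and pairing are given at the end.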

Additional observations from a re-analysis of the deposited data

Results flagged for a closer look

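The length covered in desert regions moved one way for H3K27ac and the other way for H3K18ac and H3K56ac: the log2 ratio of LPD over B cells was -0.59 for H3K27ac, 1.01 for H3K18ac and 1.09 for H3K56ac. Every LPD list lay below both B cell lists for H3K27ac and above both for the other two marks. The difference between marks itself was not tested. Total list length differed between the groups in the same directions, with log2 ratios of -0.26, 0.90 and 0.82 in the same order of marks, and its part in the difference was not tested.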

How the results depend on the processing

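Of 222 values recomputed under other settings, 164 kept their direction or stayed within 1.5 times the reported count. Another 54 were counted as moved further, and 4 shares changed sign. The 54 include the alternatives chosen after seeing the data, and of these the log2 ratio without Ebf1 kept its sign. Of 72 lengths and shares, 68 kept their direction, and no p could change side of 0.05. With genes more than 50 kb away there were 2483 regions in 273 clusters, gained, lost and kept as 279, 538 and 461 for H3K27ac, 970, 187 and 538 for H3K18ac and 416, 118 and 291 for H3K56ac. With 200 kb the counts were 486 and 53, then 59, 129 and 68, then 191, 41 and 93, then 80, 25 and 43. With non-coding genes counted as genes they were 113 and 12, then 15, 24 and 16, then 55, 11 and 16, then 26, 1 and 6, and the H3K27ac share difference became 0.0027 points. With the widest 50% of each list they were 639 and 75, then 74, 150 and 102, then 245, 59 and 137, then 105, 38 and 52. These 4 settings change how many regions enter. With at least 3 lists, H3K18ac gains were 310 and its share difference -0.059. Merging up to 1 kb apart gave 851 regions, 183 H3K27ac losses and 310 H3K18ac gains, 20% overlap gave 82 kept H3K56ac regions, and lists cut to the same number of peaks gave 255 H3K18ac and 117 H3K56ac gains; the cause was not tested. Chosen after seeing the data, a minimum of 3 lists put the share of LPD H3K18ac regions without H3K27ac at 21.8%, against 39.6%, and leaving Ebf1 out moved the log2 ratio of H3K27ac at B cell markers to -0.03, against -0.47.

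Leaving out each list in turn gave 1096 to 1306 regions and 121 to 142 clusters. H3K27ac gains ranged over 157 to 295, losses 259 to 365, kept 218 to 286, log2 length -0.99 to -0.28 and share -0.700 to -0.400 points. H3K18ac gave 348 to 553, 107 to 135, 290 to 327, 0.61 to 1.06 and -0.127 to 0.289, with -0.099 and -0.127 without the first and second LPD list. H3K56ac gave 233 to 290, 68 to 86, 137 to 161, 1.004 to 1.21 and 0.357 to 0.409. With lists of the same replicate number paired (a replicate block, smallest exact p 0.5), the log2 length ratios were -0.64, 0.99 and 1.10 for H3K27ac, H3K18ac and H3K56ac, with share differences of -0.560, 0.247 and 0.371 points; the labels name no shared source, and deviations of same-numbered lists correlated at 0.037, -0.0084 and -0.033 over 1308 regions.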
